A study of Homo sapiens with 120 samples.

Results

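Dividing cells must make and balance the deoxynucleotides (dNTPs) that DNA synthesis and repair consume. The 9 genes described here encode enzymes of that supply: the ribonucleotide reductase subunits RRM1, RRM2 and RRM2B, the thymidylate enzymes TYMS, TK1, DTYMK and DUT, the salvage kinase DCK, and SAMHD1, which breaks dNTPs down. They were chosen by name, and each was read from the probe set with the highest mean over all arrays among those that name 1 gene symbol. All 9 were among the 14023 tested genes, of 19775 with such a probe set.

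The cells were TK6, an established human B lymphoblastoid line that carries 1 working copy of TK1 and is used for mutation tests at that gene. Cultures were exposed for 4 h or 24 h to formaldehyde (FA) at 50, 100 or 200 µM, an aldehyde that crosslinks DNA with protein. Others received methyl methanesulfonate (MMS) at 80, 160 or 320 µM or ethyl methanesulfonate (EMS) at 1, 2 or 4 mM, both of which alkylate DNA and break chromosomes (clastogens). The rest received colcemid (COL) or vincristine (VCR), which bind tubulin and disturb chromosome segregation (aneugens), at 3 doses labelled 1, 2 and 4 µg/ml. The sample titles write these doses with leading zeros, so their true values are uncertain. They are called lowest, middle and highest here. Each chemical formed a set with its own untreated cultures at 4 h and 24 h. There were 40 groups of 3 arrays, numbered as experiments 1 to 3. Values are log2 signals, changes are treated minus untreated of the same set and time with their standard error (SE), and adjusted p-values are from limma over all tested genes, with a call at under 0.05. The labels do not say whether experiments were separate cultures, so p-values measure the spread between experiments, and the number of arrays limits every estimate.

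Ribonucleotide reductase turns ribonucleotides into deoxyribonucleotides. Its large subunit RRM1 pairs with the small subunit RRM2, which cells make in S phase and destroy afterwards, or with RRM2B (p53R2), a small subunit switched on by the tumour suppressor p53 that serves cells outside S phase and after DNA damage. Thymidine reaches DNA through TYMS, the target of fluorouracil, or through the salvage enzyme TK1, and both routes pass through the kinase DTYMK, while DUT removes dUTP.

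The arrays held 5 of 6 B cell markers, and all 5 were bright enough to be tested, MS4A1 with a median of 12.0 and CD79A with 8.99. Of 12 markers of lymphocytes other than B cells, of myeloid cells and of epithelium or fibroblasts, CD14, LYZ, MPO, EPCAM and KRT19 lay below the limit for testing. The others were tested: NKG7 had a median of 8.07 and COL1A1 of 8.36. CD3D, CD3E, CD2, CSF1R and COL1A2 had medians of 6.42, 6.16, 5.78, 6.60 and 5.92. The untreated FA array of experiment 3 at 4 h correlated least with its own group (mean r 0.994). RNA integrity, read as the 3′ minus 5′ signal of ACTB, differed at 24 h of 320 µM MMS (1.88 ± 0.26, against 0.941 ± 0.0792 in untreated MMS cultures) and of 200 µM FA (0.768 ± 0.0697, against 0.481 ± 0.0239 in untreated FA cultures; SD, n = 3 each). With 160 µM MMS at 24 h it was 1.28 ± 0.00829 (SD, n = 3), above every untreated MMS array, and the untreated FA cultures at 4 h ranged between 0.299 and 0.680. At 24 h of 4 mM EMS it was 0.664, against 0.521 in untreated EMS cultures, and COL and VCR cultures at 24 h lay between 0.476 and 0.548, against 0.540 and 0.463 in their untreated cultures. Its part in the results was not tested.

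At 4 h 15 of the 135 tests of the 9 genes were called, all higher, and at 24 h 96 of 135 were called, 46 higher and 50 lower. The direction at 24 h divided by chemical. The alkylating agents gave mostly higher values, 19 higher and 2 lower of 27 tests for MMS and 16 higher and none lower of 27 for EMS. The tubulin drugs gave mostly lower values, 23 lower and 3 higher for COL and 22 lower and 3 higher for VCR, where the 3 higher calls of both drugs were RRM2B at its 3 doses. FA gave 5 higher and 3 lower.

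These counts stand against many calls over all genes. FA at 50, 100 and 200 µM gave 0, 6 and 2 called members at 4 h, where 0.82%, 40.7% and 53.8% of all tested genes were called, and 0, 1 and 7 at 24 h, against 0%, 3.81% and 47.7%. MMS at 80, 160 and 320 µM gave 0, 2 and 2 at 4 h, against 1.6%, 13.5% and 28.6%, and 6, 7 and 8 at 24 h, against 28.5%, 47.3% and 58.5%. EMS at 1, 2 and 4 mM gave 0, 0 and 3 at 4 h, against 0.143%, 1.06% and 9.6%, and 5, 5 and 6 at 24 h, against 24.3%, 34.6% and 51.5%. COL gave no called member at 4 h, against 0%, 0.0642% and 0.913%, and 9, 9 and 8 at 24 h, against 37.3%, 37.7% and 36.4%. VCR gave none at 4 h, against 0%, 0.00713% and 0.25%, and 9, 8 and 8 at 24 h, against 37.4%, 36.9% and 35.7%. By direction, the share of all genes called lower at 24 h was 20.7%, 20.3% and 18.3% for COL and 20.8%, 19.5% and 18.2% for VCR, with 8, 8 and 7 members lower under COL and 8, 7 and 7 under VCR. The share called higher at 24 h was 17.6%, 25.7% and 30.8% for MMS, with 5, 7 and 7 members, and 15.4%, 19.9% and 27.8% for EMS, with 5, 5 and 6 members.

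Where limma called no member, some passed an unadjusted p under 0.05: 4 at 50 µM FA at 4 h, 1 at 50 µM FA at 24 h, 2 at 80 µM MMS at 4 h, and 1 and 3 at 1 and 2 mM EMS at 4 h. For COL at 4 h it was 0 at each dose, and for VCR 0, 0 and 1. Over all genes limma called 0 at 50 µM FA at 24 h and at the lowest COL and VCR doses at 4 h, with 385, 265 and 511 genes at an unadjusted p under 0.05. The 6 calls at 4 h of 100 µM FA leaned on 1 array: without the untreated array of experiment 3 the FA calls at 4 h numbered 4 in place of 8, since RRM2, TYMS, DTYMK and DUT at 100 µM were no longer called. At 200 µM at 4 h calls depended on the probe set. Other probe sets of TYMS (0.25), DUT (0.14 and 0.34), DTYMK (0.24 and 0.38) and SAMHD1 (0.38) were called higher. Their main probe sets were not called. Others of DTYMK (-0.32) and, below the limit for testing, of SAMHD1 (-0.57) were called lower. Apart from the second of TK1 (0.44, called), the remaining other probe sets were not called there.

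**Figure D1:**
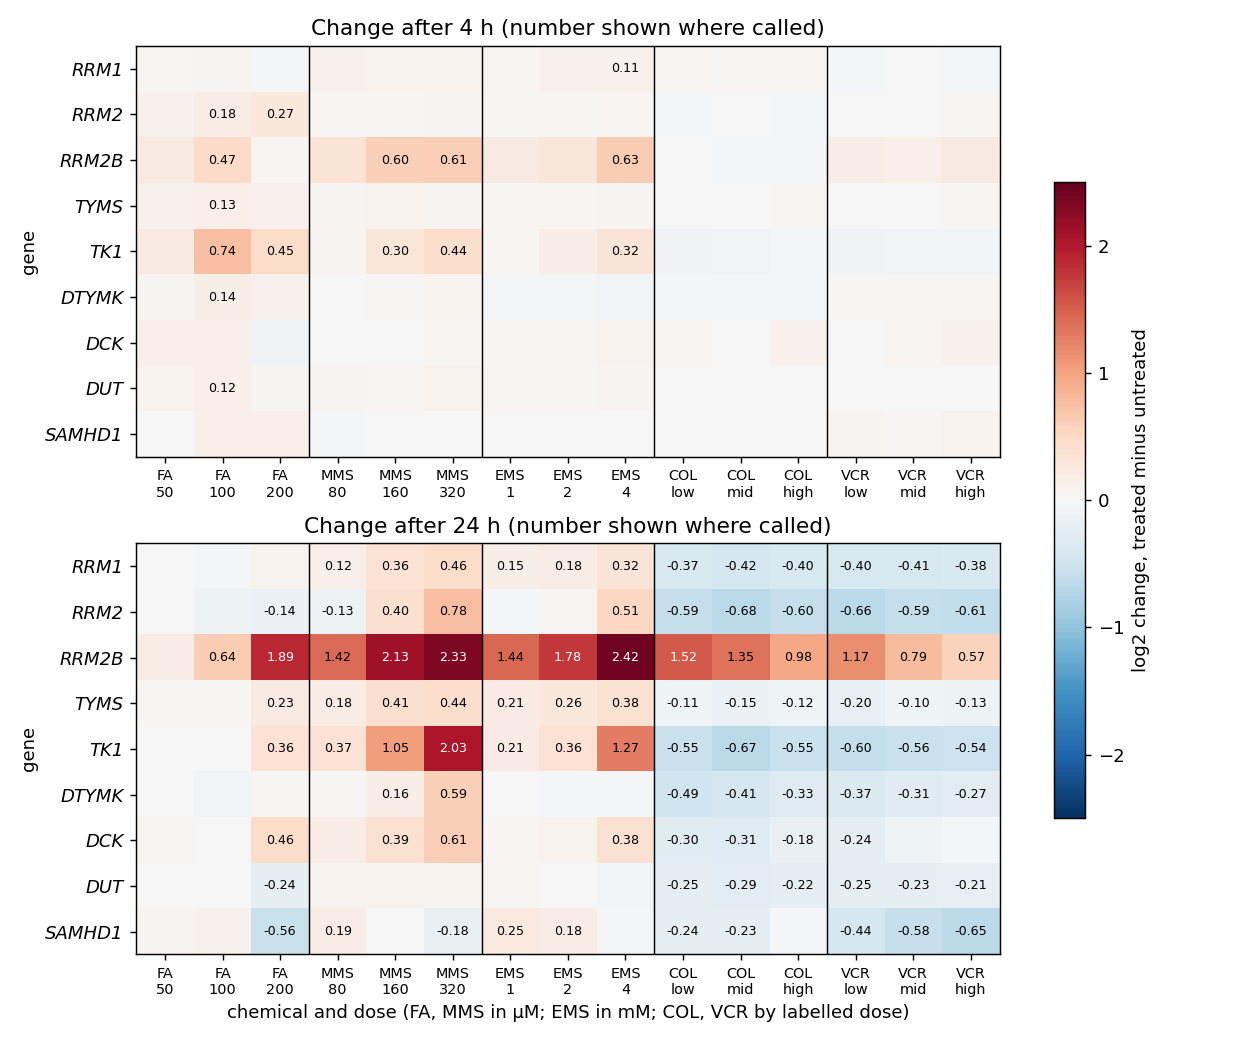
Log2 change (treated minus untreated of the same set and time) of the 9 genes (rows) at each chemical and dose (columns) after 4 h (top) and 24 h (bottom), with the number printed where the change was called. RRM2B is higher with all 5 chemicals at 24 h, and the other 8 genes turn from mostly higher with MMS and EMS to mostly lower with COL and VCR.

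Promoters are shown for RRM2, TK1 and DTYMK, which rose with the highest MMS dose at 24 h and fell with COL and VCR, each at a start whose window holds at least 2 CCAAT boxes. The other listed start of RRM2 has 1 such box and that of TK1 has 0. RRM1 and TYMS also rose with that MMS dose and fell with COL and VCR, and their windows hold 1 and 0. The window of SAMHD1 holds 2, and its change at that MMS dose was -0.18. Each sequence is the 250 bases before a RefSeq start (GRCh38.p14), printed 5′ to 3′ on the gene's strand, with capitals at each CCAAT or its reverse complement ATTGG.
RRM2, chr2:10122489-10122738, plus strand: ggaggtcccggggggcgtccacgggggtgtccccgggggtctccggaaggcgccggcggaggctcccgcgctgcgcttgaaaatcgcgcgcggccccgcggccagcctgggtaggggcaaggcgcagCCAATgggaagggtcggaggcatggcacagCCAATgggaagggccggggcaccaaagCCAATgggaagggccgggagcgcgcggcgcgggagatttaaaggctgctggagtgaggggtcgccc
TK1, chr17:78187053-78187302, minus strand: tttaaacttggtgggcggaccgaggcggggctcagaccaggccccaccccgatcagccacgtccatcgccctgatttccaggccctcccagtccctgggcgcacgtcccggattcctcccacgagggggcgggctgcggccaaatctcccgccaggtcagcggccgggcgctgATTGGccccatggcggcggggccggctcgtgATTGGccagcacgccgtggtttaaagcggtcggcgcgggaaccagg
DTYMK, chr2:241686816-241687065, minus strand: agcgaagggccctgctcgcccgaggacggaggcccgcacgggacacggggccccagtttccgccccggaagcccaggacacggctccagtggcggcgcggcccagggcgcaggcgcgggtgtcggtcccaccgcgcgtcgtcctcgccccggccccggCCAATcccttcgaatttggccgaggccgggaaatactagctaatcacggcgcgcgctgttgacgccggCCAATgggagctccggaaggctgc
RRM2 holds 3 such boxes, which begin 123, 93 and 66 bases before the start, TK1 holds 2, at 77 and 46 bases, and DTYMK 2, at 92 and 24 bases. The table held 13 windows of 8 of the 9 genes, some with several starts. On either strand the CCAAT box was found in 6 of the 13 windows (of RRM1, RRM2, TK1, DTYMK and SAMHD1), against 32% of 35116 promoters of the same length. An E2F motif (TTT, then 2 letters that are each C or G, then CGC) was found in 2 of the 13, those of TYMS and of 1 of the 4 DUT starts, against 2.79%, and the CHR motif TTTGAA also in 2, those of RRM1 and the same DUT start, against 13.3%, a share near that of the 13 windows. No match of one motif shared bases with a match of another in these windows. A match is a description of these letters and not a measured binding site.

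RRM2B rose most of the 9 genes and was higher with every chemical at 24 h. After 24 h of 4 mM EMS its signal was 11.98, 11.91 and 12.03, against 9.64, 9.46 and 9.54 in untreated EMS cultures, a 5.37-fold rise (log2 change 2.42 ± 0.082, adjusted p = 1.04e-15). After 320 µM MMS it was 12.01, 11.61 and 12.15, against 9.77, 9.58 and 9.44 in untreated MMS cultures (2.33 ± 0.11, adjusted p = 1.02e-13). The arrays of treated and untreated cultures were far apart in both sets, with the lowest treated array of experiment 2 under MMS still above every untreated one. FA at 200 µM gave 11.44, 11.41 and 11.27, against 9.44, 9.46 and 9.55 in untreated FA cultures (1.89 ± 0.075, adjusted p = 1.75e-14). The highest COL dose gave 10.47, 10.51 and 10.52, against 9.53, 9.51 and 9.53 in untreated COL cultures (0.98 ± 0.069, adjusted p = 6.84e-10). The highest VCR dose gave 10.07, 10.09 and 10.15, against 9.40, 9.58 and 9.61 in untreated VCR cultures (0.57 ± 0.10, adjusted p = 0.000146). No treated array overlapped an untreated one in these 3 sets. Over all 30 comparisons RRM2B was called higher in 18 and lower in none, with changes from -0.06 to 2.42.

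The dose order of RRM2B ran opposite ways in the 2 classes of chemical. At 24 h its change was 1.42, 2.13 and 2.33 over the MMS doses and 1.44, 1.78 and 2.42 over the EMS doses, low to high, and 0.19, 0.64 and 1.89 over the FA doses, the first of which was not called. Over the COL doses it was 1.52, 1.35 and 0.98, and over the VCR doses 1.17, 0.79 and 0.57. The lowest dose of both tubulin drugs thus carried the highest RRM2B signal, 11.02, 11.06 and 11.07 for COL and 10.65, 10.75 and 10.71 for VCR. The highest minus the lowest dose at 24 h was 1.70 ± 0.075 for FA, 0.92 ± 0.11 for MMS and 0.98 ± 0.082 for EMS, against -0.55 ± 0.069 for COL and -0.60 ± 0.10 for VCR, all called (adjusted p = 1.11e-13, 3.42e-07, 3.66e-09, 1.74e-05 and 0.000496). In that comparison 7, 8 and 8 members were called for FA, MMS and EMS, against 46.3%, 52.4% and 43.7% of all genes, and 3 and 2 for COL and VCR, against 13.7% and 13.6%. At 4 h it called 3 members for FA (RRM2, TK1 and DCK, against 46.3%), TK1 for MMS (against 17.4%) and RRM2B for EMS (against 2.4%), and none for COL or VCR. With experiment as a block it also called RRM2B for FA (-0.18, adjusted p = 0.0416) and MMS (0.28, adjusted p = 0.0400) and TK1 for EMS (0.27, adjusted p = 0.0216).

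At 4 h RRM2B had begun to rise with the DNA-reactive chemicals. Its signal at 4 mM EMS was 10.43, 10.46 and 10.51, against 9.98, 9.68 and 9.84 in untreated EMS cultures (0.63 ± 0.082, adjusted p = 2.34e-05), and the change at 160 and 320 µM MMS was 0.60 and 0.61. At 2 mM EMS it was 0.28 and was called only with experiment as a block (adjusted p = 0.0168, against 0.138 without). At 160 µM MMS the call was lost without experiment 1 (adjusted p = 0.0669). FA gave 0.47 ± 0.075 at 100 µM (10.19, 10.24 and 10.28, against 9.57, 9.81 and 9.91 in untreated FA cultures, adjusted p = 2.82e-05) and 0.05 at 200 µM (9.84, 9.79 and 9.81), which was not called. The direct difference of 200 minus 100 µM, a comparison chosen after the values were seen, was -0.42 ± 0.075 for RRM2B (adjusted p = 0.000105), -0.29 for TK1 and -0.22 for DCK, all called. The other 6 members were not called in it, and 34.9% of all genes were. RRM2B was not called at 4 h at any COL dose (-0.06 to 0.01) or VCR dose (0.14 to 0.23).

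**Figure D2:**
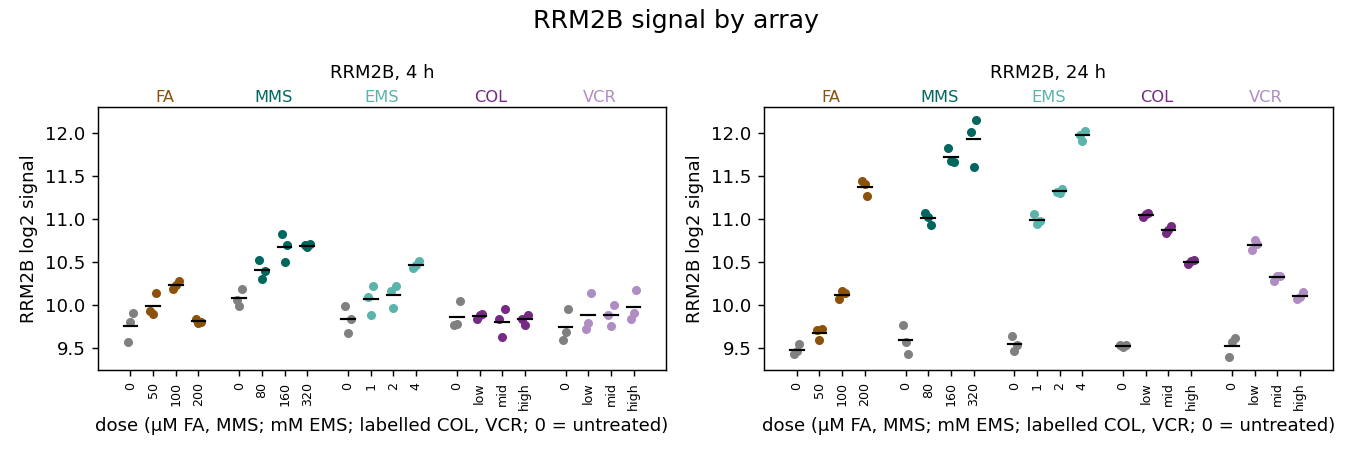
RRM2B log2 signal of each array (points, 3 per group) and group mean (bars) by dose within each chemical set, with the untreated group of the set as dose 0, after 4 h (left) and 24 h (right). At 24 h the signal climbs with dose for FA, MMS and EMS, while for COL and VCR all doses lie above untreated and the lowest dose is highest.

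RRM2, the S phase small subunit, followed a different course from RRM2B. After 24 h of 320 µM MMS its signal was 13.85, 13.83 and 13.82, against 13.01, 13.12 and 13.03 in untreated MMS cultures (0.78 ± 0.041, adjusted p = 4.11e-13). At 4 mM EMS it was 13.42, 13.44 and 13.43, against 12.92, 12.95 and 12.90 in untreated EMS cultures (0.51 ± 0.039, adjusted p = 3.65e-10). The rise came at the upper doses: the MMS changes were -0.13, 0.40 and 0.78 and the EMS changes -0.05, 0.02 and 0.51. The fall at 80 µM MMS was small and lost its call when any 1 experiment was left out (adjusted p 0.0816 to 0.212). With the tubulin drugs RRM2 fell at every dose at 24 h. The highest COL dose gave 12.46, 12.45 and 12.43, against 13.06, 13.06 and 13.03 in untreated COL cultures (-0.60 ± 0.032, adjusted p = 9.58e-12), and the other changes of both drugs lay between -0.68 and -0.59. The arrays within a group differed by little, so these differences far exceed their spread.

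By its main probe set RRM2 rose with FA at 4 h, by 0.18 at 100 µM and 0.27 ± 0.055 at 200 µM (13.07, 12.98 and 13.04 at 200 µM, against 12.87, 12.77 and 12.64 in untreated FA cultures, adjusted p = 0.00033). The second probe set, nearly as bright (mean 12.74, against 12.93), gave 0.03 at 200 µM at 4 h and was not called (adjusted p = 0.492). At 24 h of 200 µM RRM2 was lower by the main probe set (-0.14 ± 0.055, adjusted p = 0.0456) and higher by the other (0.10, adjusted p = 0.0456), so no direction is given. For the other 4 highest doses at 24 h the second probe set moved as the first, 0.86 for MMS, 0.55 for EMS, -0.79 for COL and -0.69 for VCR. RRM2B has 1 such probe set and cannot be checked this way.

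RRM1, the large subunit, rose with every MMS and EMS dose at 24 h and fell with every COL and VCR dose. Its changes were 0.12, 0.36 and 0.46 over the MMS doses and 0.15, 0.18 and 0.32 over the EMS doses. At the highest doses of these 4 chemicals the change had the sign of that of RRM2 and was smaller, while at 80 µM MMS and 1 mM EMS RRM1 was above untreated and RRM2 below (-0.13 and -0.05). Its signal at 320 µM MMS was 13.09, 13.06 and 13.13, against 12.61, 12.62 and 12.68 in untreated MMS cultures. At the highest COL dose it was 12.26, 12.25 and 12.26, against 12.60, 12.68 and 12.69 in untreated COL cultures (-0.40 ± 0.034, adjusted p = 1.18e-08). All 6 changes with the tubulin drugs at 24 h were called, between -0.42 and -0.37. FA did not give a called change of RRM1 at any dose or time (-0.03 to 0.09). The call at 80 µM MMS was lost when any 1 experiment was left out (adjusted p 0.0714 to 0.367), as was that at 4 mM EMS at 4 h (0.11, adjusted p 0.183 to 0.281 without 1 experiment).

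**Figure D3:**
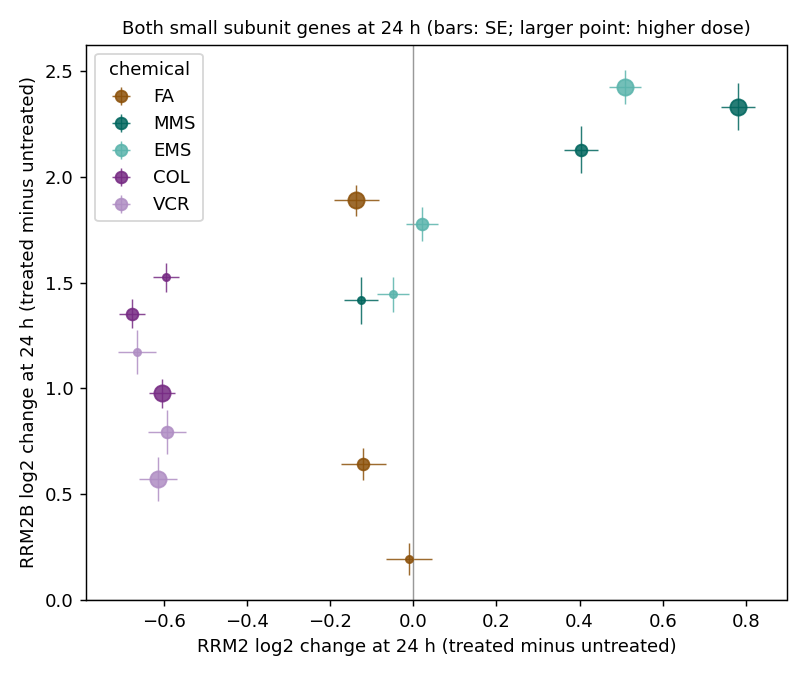
Log2 change at 24 h of RRM2 (x axis) against RRM2B (y axis) for each of the 15 treatments, with bars of 1 SE and larger points for higher doses. RRM2B is above 0 in all 15, while RRM2 lies to the right at the highest MMS and EMS doses and between -0.68 and -0.59 for COL and VCR.

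Across the 30 changes against untreated, RRM1 and RRM2 had a Pearson r of 0.934, while RRM2 and RRM2B had 0.136. The 30 points share untreated arrays within each set and time, so these values are descriptions only.

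TK1, the salvage kinase of thymidine, had the widest range of changes of the 9 genes, from -0.67 to 2.03. After 24 h of 320 µM MMS its signal was 9.98, 9.93 and 9.84, against 7.95, 7.97 and 7.75 in untreated MMS cultures, a 4.08-fold rise (2.03 ± 0.076, adjusted p = 2.54e-15). At 4 mM EMS it was 9.86, 9.76 and 9.48, against 8.37, 8.55 and 8.36 in untreated EMS cultures (1.27 ± 0.073, adjusted p = 4.46e-12). Both treated groups stood clear of their untreated arrays, and the change climbed with dose, 0.37, 1.05 and 2.03 for MMS and 0.21, 0.36 and 1.27 for EMS. The untreated MMS cultures had means of 7.83 at 4 h and 7.89 at 24 h, lower than the 8.23 to 8.60 of the untreated cultures of the other sets. With COL TK1 changed by -0.55, -0.67 and -0.55 and with VCR by -0.60, -0.56 and -0.54, all called. The highest COL dose gave 8.01, 7.99 and 8.01, against 8.55, 8.58 and 8.53 in untreated COL cultures, and the highest VCR dose 8.05, 8.06 and 7.99, against 8.49, 8.67 and 8.57 in untreated VCR cultures. The highest and lowest doses of these drugs gave no called difference of TK1. The call at 1 mM EMS was lost when any 1 experiment was left out (adjusted p up to 0.140).

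TK1 also rose at 4 h. With 4 h of 100 µM FA it was 9.05, 9.05 and 8.95, against 8.30, 8.36 and 8.17 in untreated FA cultures (0.74 ± 0.058, adjusted p = 1.58e-09), and at 200 µM 0.45 (adjusted p = 1.08e-06). At 50 µM it was 0.23, called with experiment as a block (adjusted p = 0.0447) and not without (adjusted p = 0.0624). By 24 h the order of the FA doses was another: -0.01 and 0.01 at 50 and 100 µM, not called, and 0.36 at 200 µM (8.98, 8.98 and 8.92, against 8.57, 8.63 and 8.61 in untreated FA cultures). MMS at 160 and 320 µM gave 0.30 and 0.44 at 4 h and EMS at 4 mM 0.32, and the first and last of these lost their call without experiment 1 or 2 (adjusted p 0.0597 to 0.207). A second probe set of TK1 gave 1.82 for the highest MMS dose at 24 h, 1.24 for EMS, 0.37 for FA, -0.49 for COL and -0.47 for VCR.

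**Figure D4:**
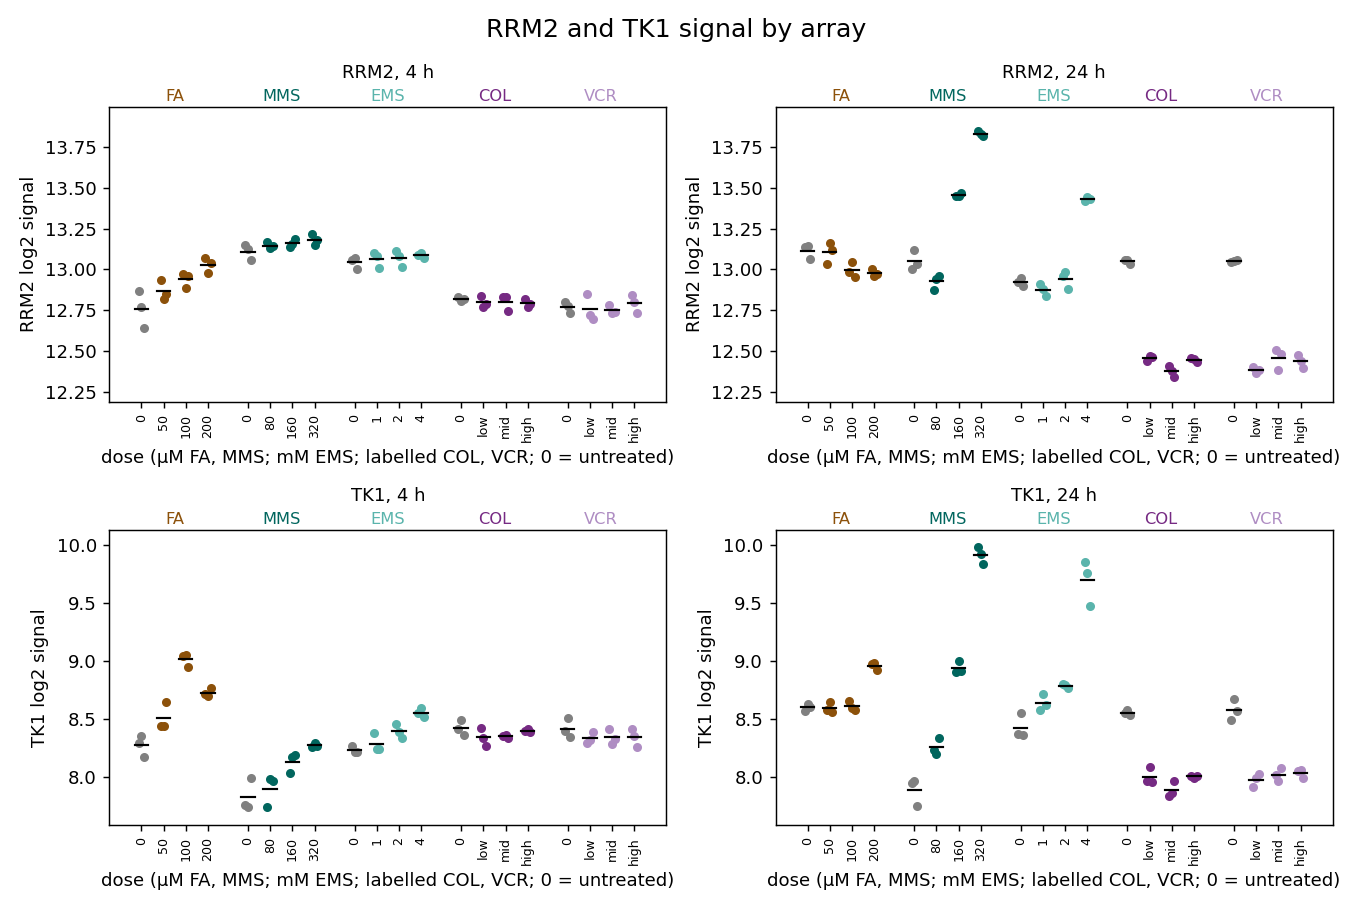
RRM2 (top) and TK1 (bottom) log2 signal of each array (points) and group mean (bars) by dose, with the untreated group of each set as dose 0, after 4 h (left) and 24 h (right). At 24 h both genes lie above untreated at the highest MMS and EMS doses and below it at every COL and VCR dose, and TK1 at 4 h is highest at 100 µM FA.

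TYMS, which makes thymidylate from deoxyuridylate, rose with the alkylating agents at every dose at 24 h, by 0.18, 0.41 and 0.44 for MMS and 0.21, 0.26 and 0.38 for EMS. Its signal at 4 mM EMS was 13.75, 13.73 and 13.73, against 13.30, 13.39 and 13.38 in untreated EMS cultures (0.38 ± 0.036, adjusted p = 1.33e-08). At 24 h of 200 µM FA it was 13.66, 13.69 and 13.63, against 13.40, 13.44 and 13.46 in untreated FA cultures (0.23 ± 0.047, adjusted p = 0.00035). None of these arrays overlapped between treated and untreated cultures. Neither other probe set of TYMS was called at 24 h of 200 µM FA (0.20 and 0.22, limma adjusted p = 0.115 and 0.197). The falls with the tubulin drugs were called and small, between -0.20 and -0.10, and at 4 of the 6 doses the call was lost without at least 1 experiment. The second brightest of the 3 probe sets of TYMS (mean 11.84) gave 0.44 for MMS, 0.41 for EMS and -0.23 for both COL and VCR. These are the highest doses at 24 h. The dimmest, with a mean of 6.07 below the limit of 6.18, gave 0.87 for MMS, 0.73 for EMS and -0.32 for both COL and VCR there.

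DTYMK, which phosphorylates thymidylate for both routes, separated the 2 alkylating agents. At 24 h of 320 µM MMS it was 11.64, 11.72 and 11.61, against 11.07, 11.11 and 11.03 in untreated MMS cultures (0.59 ± 0.047, adjusted p = 4.87e-10). At 4 mM EMS it was 11.11, 11.09 and 11.18, against 11.11, 11.19 and 11.17 in untreated EMS cultures, which overlap (-0.04 ± 0.039, adjusted p = 0.491). The difference of the 2 changes, MMS minus EMS, was 0.62 ± 0.057 (adjusted p = 8.48e-11). With COL DTYMK changed by -0.49, -0.41 and -0.33 and with VCR by -0.37, -0.31 and -0.27, all called. The COL falls were shallower at the highest than at the lowest dose (difference 0.16 ± 0.032, adjusted p = 0.00182). At 160 µM MMS DTYMK changed by 0.16, a call that was lost without experiment 1 or 3 (adjusted p = 0.0698 and 0.0644). Of its other probe sets the second brightest gave 0.47 at 320 µM MMS and the fourth -0.09, which was not called.

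DUT, which removes dUTP and so supplies the substrate of TYMS, had no called change with MMS or EMS by its main probe set. At 24 h of 320 µM MMS it was 13.54, 13.56 and 13.61, against 13.48, 13.50 and 13.47 in untreated MMS cultures (0.09, adjusted p = 0.0525, and 0.0475 with experiment as a block). Its other probe sets disagreed there, with 0.15 for the second brightest and -0.32 for the dimmest, both called, so no direction is given. At 4 mM EMS the main probe set gave -0.06, not called, and the dimmest -0.39, called (adjusted p = 6.68e-08). DUT fell with 200 µM FA at 24 h, to 13.26, 13.31 and 13.23, against 13.49, 13.50 and 13.54 in untreated FA cultures (-0.24 ± 0.041, adjusted p = 3.01e-05), and the dimmest probe set gave -1.24. With the tubulin drugs all 6 changes were called, between -0.29 and -0.21. The main probe set is of a kind whose probes can match more than 1 transcript family, by the maker's naming.

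DCK phosphorylates deoxycytidine and the deoxypurines for salvage, and activates drugs such as cytarabine. It rose at 24 h with 200 µM FA, to 11.25, 11.08 and 11.18, against 10.69, 10.71 and 10.74 in untreated FA cultures (0.46 ± 0.058, adjusted p = 9.36e-07). MMS at 320 µM gave 11.61, 11.30 and 11.71, against 11.02, 10.90 and 10.86 in untreated MMS cultures (0.61 ± 0.085), and EMS at 4 mM gave 0.38 ± 0.057. The 3 DNA-reactive chemicals thus moved DCK the same way at their highest dose. With COL it changed by -0.30, -0.31 and -0.18, all called, the last not when any 1 experiment was left out (adjusted p 0.0505 to 0.121). With VCR it was -0.24, -0.10 and -0.05, of which the first was called, and not without experiment 2 (adjusted p = 0.0799).

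SAMHD1 splits dNTPs to nucleosides and restrains their level outside S phase. It gave lower signals at 24 h of 200 µM FA and of every VCR dose. At 50 and 100 µM FA its changes at 24 h were 0.07 and 0.12, not called. At 200 µM FA it was 10.40, 10.67 and 10.36, against 11.00, 11.06 and 11.05 in untreated FA cultures (-0.56 ± 0.062, adjusted p = 1.39e-07). At the highest VCR dose it was 10.45, 10.30 and 10.21, against 10.96, 10.96 and 10.98 in untreated VCR cultures (-0.65 ± 0.064, adjusted p = 6.1e-08), and the lower doses gave -0.44 and -0.58. Neither group overlapped its untreated arrays. COL gave -0.24 and -0.23 at the lowest and middle dose and -0.06 at the highest, where it was not called (10.97, 10.90 and 10.98, against 11.00, 11.02 and 11.00 in untreated COL cultures). The difference of the 2 tubulin drugs at the highest dose, COL minus VCR, was 0.59 ± 0.074 (adjusted p = 1.64e-06). SAMHD1 was the 1 member called in that comparison, against 2.02% of all genes, and RRM2B joined it with experiment as a block (0.40, adjusted p = 0.00881).

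With the alkylating agents SAMHD1 turned with dose by its main probe set. It rose at 1 mM EMS (11.37, 11.46 and 11.36, against 11.12, 11.17 and 11.15 in untreated EMS cultures, 0.25 ± 0.048) and at 2 mM by 0.18, a call lost without experiment 1 or 2 (adjusted p = 0.0517 and 0.0692), and was -0.06 at 4 mM, not called. MMS gave 0.19 at 80 µM, -0.01 at 160 µM and -0.18 at 320 µM, the first and last of them called, and each lost its call without experiment 1 (adjusted p = 0.185 and 0.113). The highest minus the lowest dose was -0.30 ± 0.048 for EMS, -0.37 ± 0.059 for MMS and -0.63 ± 0.062 for FA, all called. The second brightest of its 6 probe sets, nearly as bright as the main one, gave -0.15 at the highest COL dose at 24 h and was called (adjusted p = 0.0109), and -0.77 at the highest VCR dose. Both it and the main one are, as for DUT, of a kind whose probes can match more than 1 transcript family. The third brightest gave lower values at the highest doses at 24 h, -0.86 for FA, -0.44 for MMS, -0.22 for EMS and -0.79 for VCR, and -0.03 for COL, while the dimmest, below the limit for testing, gave 0.41 for COL.

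**Figure D5:**
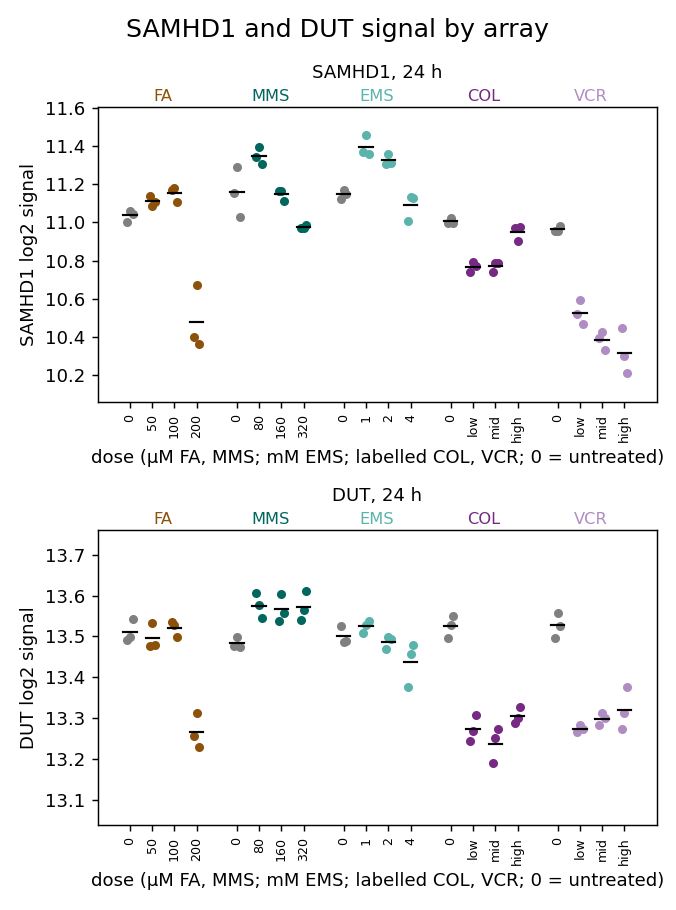
SAMHD1 (top) and DUT (bottom) log2 signal of each array (points) and group mean (bars) at 24 h by dose, with the untreated group of each set as dose 0. Both genes drop at 200 µM FA, and SAMHD1 is lowest at the highest VCR dose while the highest COL dose sits near its untreated arrays.

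The 24 h and 4 h changes at the highest dose also differed in most tests with MMS, EMS, COL and VCR. The difference, 24 h minus 4 h, was called for 5 members with FA, 7 with MMS, 7 with EMS, 8 with COL and 7 with VCR, against 53.3%, 45.2%, 38.3%, 22.5% and 22.4% of all genes. The count for FA lies near the share of all genes. RRM2B differed by 1.84 ± 0.11 with FA, 1.72 ± 0.16 with MMS, 1.79 ± 0.12 with EMS and 1.01 ± 0.097 with COL.

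The chemicals were then compared with each other at their highest doses, as differences of the changes from untreated. The doses are not matched between chemicals. At 24 h FA minus MMS called 8 members, all lower with FA, against 36% of all genes, led by TK1 (-1.67 ± 0.096, adjusted p = 1.18e-16), RRM2 (-0.92 ± 0.064) and DTYMK (-0.57 ± 0.063). FA minus EMS called 7, all lower with FA, against 24.7%, with TK1 at -0.91, RRM2 at -0.65 and RRM2B at -0.54. FA minus COL called 8, of which 7 were higher with FA and SAMHD1 lower (-0.50), against 32.7%, with RRM2B at 0.91 and TK1 at 0.91. MMS minus EMS called 5, all higher with MMS, against 27%, with TK1 at 0.76, DTYMK at 0.62, RRM2 at 0.27, DUT at 0.15 and RRM1 at 0.14. FA therefore lay between the alkylating agents and COL for TK1, RRM2 and RRM2B at these doses. At 4 h FA minus MMS called 3 (RRM2B -0.57, RRM2 0.20 and RRM1 -0.12), against 39.8%. The second RRM2 probe set changed by 0.03 with FA and 0.17 with MMS there. The second, dimmer RRM1 probe set changed by 0.21 with FA and 0.09 with MMS, neither called. FA minus EMS called 4 (against 42.1%) and FA minus COL 4 (against 43.3%). MMS minus EMS and COL minus VCR called none at 4 h, against 7.34% and 0.057%.

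MMS and EMS as a class were compared with COL and VCR at the highest doses. By their main probe sets all 9 genes were higher with the clastogens at 24 h. Of all genes 54.6% were called there in either direction, and 29.9% were called higher. TK1 differed by 2.20 ± 0.064, RRM2B by 1.60 ± 0.098, RRM2 by 1.25 ± 0.034 and RRM1 by 0.78 ± 0.030. DCK, DTYMK and TYMS followed at 0.61, 0.57 and 0.53, and DUT and SAMHD1 at 0.23 each. For SAMHD1 the main probe set gave -0.18 with MMS and -0.06 with EMS, against -0.06 with COL and -0.65 with VCR. The fourth brightest gave -0.57 and -0.36, against 0.10 and -0.60, and the second brightest -0.21 and -0.09, against -0.15 and -0.77. For DUT the dimmest gave -0.32 and -0.39, against -0.42 and -0.34, and the second brightest 0.15 and -0.06, against -0.31 and -0.28. The class difference was not tested in other probe sets. At 4 h of exposure RRM2B (0.53 ± 0.098), TK1 (0.44 ± 0.064) and RRM1 (0.10 ± 0.030) were called, against 23.6% of all genes.

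Other genes of nucleotide metabolism were counted by list, and most purine genes fell at 24 h. For the 24 h cultures at the highest FA, MMS, EMS, COL and VCR doses 23.8%, 30.8%, 27.8%, 18% and 17.5% of all tested genes were called higher and 23.9%, 27.7%, 23.6%, 18.3% and 18.2% lower, and the counts of the lists stand beside these shares. Of 31 further dNTP and pyrimidine genes 24 were tested, and at 24 h of the highest doses 6 rose and 13 fell with FA, 7 and 8 with MMS, 8 and 8 with EMS, 3 and 8 with COL and 3 and 7 with VCR. For MMS and EMS, and for the rises with FA, these counts lie near the shares of all genes. The nucleoside transporter SLC29A2 changed by -1.16 with MMS and -0.95 with EMS, and DHODH, a pyrimidine synthesis enzyme, by -0.67 and -0.53, while the uridine kinase UCK1 changed by 0.90 and 0.37. Of 20 purine genes 18 were tested, and most fell: 15 with FA, 13 with MMS, 14 with EMS, 12 with COL and 12 with VCR, against 1, 2, 2, 1 and 1 that rose. Their median changes were -0.34, -0.54, -0.32, -0.18 and -0.17, where the median of all tested genes lay between -0.09 and 0.08 in every comparison. PFAS, a step of purine synthesis, changed by -0.92, -1.50, -1.14, -0.61 and -0.59. After 4 h of 200 µM FA 10 of the 18 purine genes rose and 1 fell, where 29.6% of all genes were called higher and 24.2% lower.

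Among 18 replication and G1/S genes, 14 rose and 1 fell at 24 h of 320 µM MMS, 7 rose and 4 fell with 4 mM EMS, 3 rose and 8 fell with 200 µM FA, and 16 fell and none rose with the highest COL dose and likewise with VCR. The counts for EMS lie near the shares of all genes given above (27.8% higher and 23.6% lower). Of 10 G2 and M genes 8 fell and 1 rose with MMS, 6 and 2 with EMS, 7 and 1 with FA, 6 and 3 with COL, and 2 fell and 4 rose with VCR. All 10 tested p53 targets of 12 rose with each of the 5 chemicals. The arrays hold whole cultures, so a changed share of cells in S phase and a changed level per cell cannot be told apart.

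Over the 30 changes the genes most like RRM2B by Pearson r were ZMAT3 (0.992), CCDC90B (0.984) and TP53INP1 (0.983), of which ZMAT3 and TP53INP1 are known p53 targets. Most like RRM2 were PHF10 (0.979), TMEM106C (0.977) and ZWINT (0.971), and most like RRM1 were POLD3 (0.979), a DNA polymerase subunit, and SLFN13 (0.977). TK1 lay nearest to GINS4 (0.975), a replication helicase component, TYMS to DERA (0.966) and DTYMK to RFC2 (0.949), which helps load the replication clamp. DUT lay nearest to FBXO4 (0.967) and MCM4 (0.966), a subunit of the replicative helicase, DCK to GUSB (0.929) and SAMHD1 to UCP2 (0.893). Likeness here says only that the changes run alike over treatments that share untreated arrays.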

How the data were processed

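The series holds 120 Affymetrix HG-U133 Plus 2 arrays of TK6 total RNA. The authors deposited log2 signals of each probe set from RMA, as the submitters' processing notes name it. Its software and version are not given in the sources used here. Of 54675 probe sets 41091 name 1 gene symbol, 1801 several, 11721 none, and 62 are controls. Array medians lay between 6.13 and 6.24, and no 2 arrays were identical. The 9 members and all lists were chosen with earlier results of these data known.

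Each gene was taken from the brightest (highest mean) of its single-symbol probe sets, and 14023 genes with 3 or more arrays at or over 6.18 (the median of all probe set means) were tested. Models were fitted in limma 3.58.1 (R 4.3.3, files read by data.table, version 1.17.8) over each chemical's 24 arrays with 8 group means, without a block. Those between chemicals used 48 arrays and the class comparison 96. Two-sided moderated tests were adjusted by the Benjamini-Hochberg method over the genes of a comparison, and were tested on simulated data. There were 30 comparisons with untreated, 10 of highest with lowest dose, 5 between times, 10 between chemicals and 2 between classes, and 1 of FA doses was chosen after seeing the data. Text names members throughout, up to 3 called list genes each way and, per member, genes with the highest correlation of changes (5 were kept). Experiment numbers were taken to pair arrays, as the labels number experiments: deviations of same-numbered arrays correlated above 0 on average in 29 of 30 comparisons, with every pair over 0.1 in 19 (median 0.285, against -0.141 for other numbers). Alternatives were all arrays in one fit, quantile normalization repeated, experiment as a block, the mean of probe sets, dim genes kept, experiments left out in turn, 1 untreated FA array left out and other probe sets. Promoters are from RefSeq (GRCh38.p14), searched in python 3.11.15, and figures used pandas 2.3.3, numpy 2.4.6 and matplotlib 3.10.9.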

Additional observations from a re-analysis of the deposited data

Results flagged for a closer look

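The changes at the highest dose were set against each other at 24 h and 4 h (24 h minus 4 h, a test of the difference in limma), and 34 of the 45 tests of the 9 genes differed between the times. For FA 5 members differed, where 53.3% of all genes did, so that the count lies near the share of all genes. They were RRM2B by 1.84 and DCK by 0.56, with RRM2 at -0.41, DUT at -0.31 and SAMHD1 at -0.69. The RRM2 value is that of the main probe set, and no direction is given, since the second probe set changed by 0.10 at 24 h and 0.03 at 4 h. For MMS 7 members differed, against 45.2%, all toward higher values at 24 h: RRM2B by 1.72, TK1 by 1.59, RRM2 by 0.71, DCK by 0.59, DTYMK by 0.50, RRM1 by 0.37 and TYMS by 0.36.

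For EMS 7 differed, against 38.3%: RRM2B by 1.79, TK1 by 0.95, RRM2 by 0.47, TYMS by 0.30, DCK by 0.29 and RRM1 by 0.21, with DUT at -0.13. For COL 8 differed, against 22.5%: RRM2B by 1.01, and toward lower values RRM2 at -0.58, TK1 at -0.52, RRM1 at -0.43, DCK at -0.28, DTYMK at -0.28, DUT at -0.22 and TYMS at -0.14. For VCR 7 differed, against 22.4%, all toward lower values: SAMHD1 at -0.73, RRM2 at -0.64, TK1 at -0.47, RRM1 at -0.34, DTYMK at -0.30, DUT at -0.20 and TYMS at -0.17. RRM2B under VCR differed by 0.35 with experiment as a block (adjusted p = 0.0154) and was not called without it.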

How the results depend on the processing

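The 513 results were recomputed under 8 alternatives, and 36 of the FA set also without 1 untreated array, 4140 values in all. Of these, 3880 kept direction and call or were called in neither fit, 175 lost the call and 82 gained it. A further 3, called in at least 1 of the fits compared, turned direction. Turns of direction between values called in neither fit were not counted, here or for other probe sets. Counts of calls at 4 h depended most on the processing. The 8 calls for FA at 4 h became 13 with all arrays in one fit and 12 with the mean of probe sets. With quantile normalization repeated they became 5, and with 1 experiment left out 4 to 8. Without the untreated array of experiment 3 they became 4. The 4 for MMS at 4 h became 11 in one fit, 8 with the mean of probe sets and 2 to 4 with 1 experiment left out, and the 3 for EMS at 4 h became 1 to 2. The cause was not tested. With experiment as a replicate block 10 calls were gained and none lost, and apart from those beside the results they were DCK for VCR in highest minus lowest dose at 24 h (0.19) and DUT between classes at 4 h (0.07). The replicate block changed no other call. With the mean of probe sets DTYMK at 160 µM MMS at 24 h was -0.0024, DUT for MMS 24 h minus 4 h -0.17 and RRM1 for FA minus MMS at 4 h 5.5e-05. Other probe sets turned direction at 24 h for DTYMK with COL (0.11) and VCR (0.059) in the dimmest of its 5 probe sets and with FA (-0.27, and -0.32 at 4 h) and MMS (-0.092) in the fourth, for DUT with MMS in the dimmest (-0.32), for RRM2 with FA in the second (0.10), and for SAMHD1 in the dimmest with COL (0.41), FA (0.24, and -0.57 at 4 h) and MMS (0.047).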
